A study of Mus musculus with 8 samples.

Results

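Cyclins and cyclin-dependent kinases (CDKs) drive cells through the division cycle. D-type cyclins with Cdk4 or Cdk6 phosphorylate the retinoblastoma (Rb) proteins, which releases E2f transcription factors to switch on genes for DNA replication, among them the E-type cyclins, whose kinase partner is Cdk2. CDK inhibitors hold the kinases back, Wee1 places inhibitory phosphates on them and Cdc25 phosphatases take these off. Mouse embryonic stem (ES) cells divide quickly with a short G1 phase. Described here are 48 genes of this machinery, taken from a list of symbols by their role: 16 cyclins, 11 CDKs, 6 CDK inhibitors, 8 E2f factors, 3 genes of the Rb family and 4 genes of the Cdc25 and Wee1 group. All 48 symbols were found among the 22367 protein-coding genes of the GENCODE M1 annotation of the mouse genome, build mm9.

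DNA double-stranded breaks (DSBs) were mapped by DSB-seq, in which the free DNA ends of a break are labelled by terminal transferase, purified and sequenced. The cells were Chd1 KO ES cells (Chd1Δ/Δ), which lack the chromatin remodeler Chd1, and control ES cells (Chd1fl/Δ, named WT in the labels), which keep 1 floxed allele of Chd1 and already carry 1 deleted allele. Each genotype had 2 replicates, which the authors combined before they called peaks, so 1 list of peaks stands for each genotype, with 5671 peaks in Chd1 KO and 54 in control. No error between replicates can therefore be given and no test between genotypes was possible. The intervals below cover counting error only.

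A peak was assigned to a gene when its summit, the position with the most extended reads, lay within 1 kb of any annotated transcription start site (TSS) of the gene or between the ends of the gene. In Chd1 KO cells 13 of the 48 genes had a summit at a TSS, a share of 27.1% (Wilson 95% interval 16.6 to 41.0%), where 15.9% of all protein-coding genes did. They were the cyclins Ccne1 and Ccne2, the kinases Cdk13 and Cdk14, the transcription factors E2f1, E2f3, E2f4, E2f7 and E2f8, the pocket proteins Rb1 and Rbl1, the phosphatase gene Cdc25a and the kinase gene Wee1. Another 2 genes, Ccnd3 and Cdk6, had a summit in an intron and none at a TSS. In the gene body, 12 of 48 had a summit (25.0%, 14.9 to 38.8%), against 15.3% of all protein-coding genes.

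No control summit lay at a TSS of the 48 genes, which allows a share of up to 6.25%, and the percentage over all protein-coding genes was 0 as well. None lay in their gene bodies either, where all genes gave 0.0313%. The nearest control summit to any of the 48 genes was 249.6 kb away, at Cdkn2a, and 6 of the genes are on a chromosome without a control peak. The control list ends at a stricter value: its weakest peak had a −log10 p-value of 7.13, against 4.88 in Chd1 KO. Of the 13 promoter peaks, 12 reached the weakest control value and Wee1 did not, with 6.50. The lowest local background, which follows depth, was 3.18 reads in Chd1 KO and 2.95 in control, a ratio of 0.927. A site with fewer breaks than the weakest peak was not detectable in either list, so the absence of a control peak gives no level of breaks.

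The sequence under these peaks was rich in runs of G and C without A or T. All 15 peaks of the 48 genes held a run of at least 12 bp, as did 94.1% of all Chd1 KO peaks, and 8 held one of at least 20 bp, against 53.5% of all Chd1 KO peaks. Of these 8 long runs, 7 are shown here as examples of the sequence under the peaks. They are written 5′ to 3′ on the strand of the gene, from build mm9, with CpG dinucleotides in capitals.
Ccne2, chr4:11118014-11118058, plus strand, upstream of the gene: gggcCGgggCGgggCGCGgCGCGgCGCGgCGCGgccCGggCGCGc
E2f7, chr10:110182242-110182271, plus strand: gCGCGcCGgccCGCGcCGcccCGcccCGgc
E2f8, chr7:56136921-56136947, minus strand: ccCGCGgccCGccCGcCGgcccccccc
Cdk14, chr5:5380654-5380678, minus strand: gggggCGcCGccCGggCGCGgCGgg
Rbl1, chr2:157029968-157029988, minus strand: ccccCGgccCGccccCGcccc
Cdk13, chr13:17896884-17896903, minus strand: CGCGcCGCGgcCGgcCGgCG
Cdk6, chr5:3485944-3485966, plus strand, intron: gCGCGCGCGCGCGCGCGCGCGCG
The run of Ccne2 was the longest, with 45 bp and 13 CpGs. The intronic run of Cdk6 is of another make, an alternating CpG repeat with 11 CpGs. In the 13 promoter peaks the runs were 12 to 45 bp long, and in 9 of them the centre of the run lay within 60 bp of the summit.

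Some genes without a peak carried runs of the same length close to a TSS, and the 3 shown here are taken from the 5 longest such runs.
Ccna1, chr3:54858938-54858966, minus strand: CGgcccCGccCGccCGgcccCGgcCGggg
Ccnd1, chr7:152125885-152125909, minus strand: gcccccccccCGcCGcccccccccc
Cdkn1c, chr7:150647088-150647110, minus strand: ccCGcccCGccCGgcccCGgggg
The run of Ccna1 has 29 bp with 6 CpGs, that of Ccnd1 25 bp with 2 and that of Cdkn1c 23 bp with 4. In all, 19 of the 48 genes had a run of at least 20 bp within 1 kb of a TSS, and 10 of these had a promoter peak while 9 did not. Such a run need not lie in the peak. At Ccne1, E2f1, E2f3 and Rb1 no run of that length lay in the peak, and 6 of the 13 promoter peaks held one.

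Of the 16 cyclins, 2 had a promoter peak (12.5%, 3.50 to 36.0%), against 15.9% of all protein-coding genes. Both were E-type cyclins. Ccne1, which activates Cdk2 at the start of S phase, had its summit 26 bp downstream of a TSS, in the 5′ untranslated exon, with 23 extended reads (exact Poisson 95% interval 14.6 to 34.5) over a local background of 4.22 and a fold enrichment of 4.60. Its peak, chr7:38892309-38892900, was the widest of the 13 with 592 bp and had a GC content of 77.2%. Ccne2, its paralogue with the same role, also had 23 reads, with a fold enrichment of 4.29, and its summit lay 445 bp upstream of the nearest and outermost TSS, in the peak chr4:11117755-11118241. The promoters of the pair had GC contents of 67.5% and 70.5%, measured within 1 kb of the outermost TSS, and that of Ccne2 was the highest of the 48 genes.

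None of the D-type cyclins Ccnd1, Ccnd2 and Ccnd3, which answer to growth signals in G1, had a promoter peak, and their promoter GC contents were 56.7%, 58.2% and 52.4%. The same was true of the A-type cyclins Ccna1 and Ccna2 (59.8% and 54.0%) and of the mitotic cyclins Ccnb1 and Ccnb2 (50.5% and 47.5%). The peak of Ccnd3, chr17:47712664-47712865, lay in an intron, 70.7 kb downstream of the outermost TSS and 17.7 kb upstream of the nearest one, with 17 reads (9.90 to 27.2) and a fold enrichment of 4.13. Its GC content was 50.5%, below that of every promoter peak of the 48 genes, where the lowest was 68.6%. The other 7 cyclins, Ccnf, Ccng1, Ccng2, Ccnh, Ccnc, Ccni and Ccnj, had no peak at a TSS or in the gene body.

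Among the 11 CDKs, 2 had a promoter peak (18.2%, 5.14 to 47.7%), near the 15.9% of all protein-coding genes. Of these 2, neither is one of the classical cell-cycle kinases. Cdk13, which acts with cyclin K on RNA polymerase II, had its summit 1 bp downstream of its only annotated TSS, with 25 reads (16.2 to 36.9), a background of 4.38 and a fold enrichment of 4.83. Its peak, chr13:17896731-17897116, had a GC content of 81.3% and its promoter one of 68.6%. Cdk14, a kinase that pairs with cyclin Y, had 22 reads (13.8 to 33.3) over the lowest background of the 13, 3.26, and a fold enrichment of 5.40.

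Cdk14 has 15 annotated TSSs, the most of the 48 genes, and its promoter GC content at the outermost TSS was the lowest of all, 41.9%. Its peak, chr5:5380412-5380820, did not lie there. The summit was 39.6 kb inside the gene, in an intron, 457 bp upstream of an internal TSS. The GC content within 1 kb of that internal TSS was 60.9%. Its transcript is not annotated as protein-coding, as at the nearest TSSs of Ccne1, Ccne2 and E2f7. With TSSs of protein-coding transcripts only, all 13 genes, Cdk14 included, kept their peak. Within 1 kb of a TSS the summit of Cdk14 was the farthest, and the nearest summit outside the window lay 3.45 kb from the TSS of Cdc25c.

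Cdk6, a partner of the D-type cyclins, had its peak chr5:3485701-3486148 in an intron 142 kb downstream of the outermost TSS. With 33 reads (22.7 to 46.3), a background of 3.98 and a fold enrichment of 6.83, it was the strongest of the 15 peaks by both measures, while its GC content of 45.1% was the lowest of the 15. Its promoter had a GC content of 61.0% and a longest run of 17 bp, and the gene is 179 kb long. The interval of its reads overlapped that of every promoter peak described here. Cdk1, Cdk2, Cdk4, Cdk5, Cdk7, Cdk8, Cdk10 and Cdk12 had no peak. The nearest summit to Cdk4 lay 3.65 kb upstream, and that peak was at the promoter of the neighbouring gene March9, 303 bp from its TSS.

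**Figure D1:**
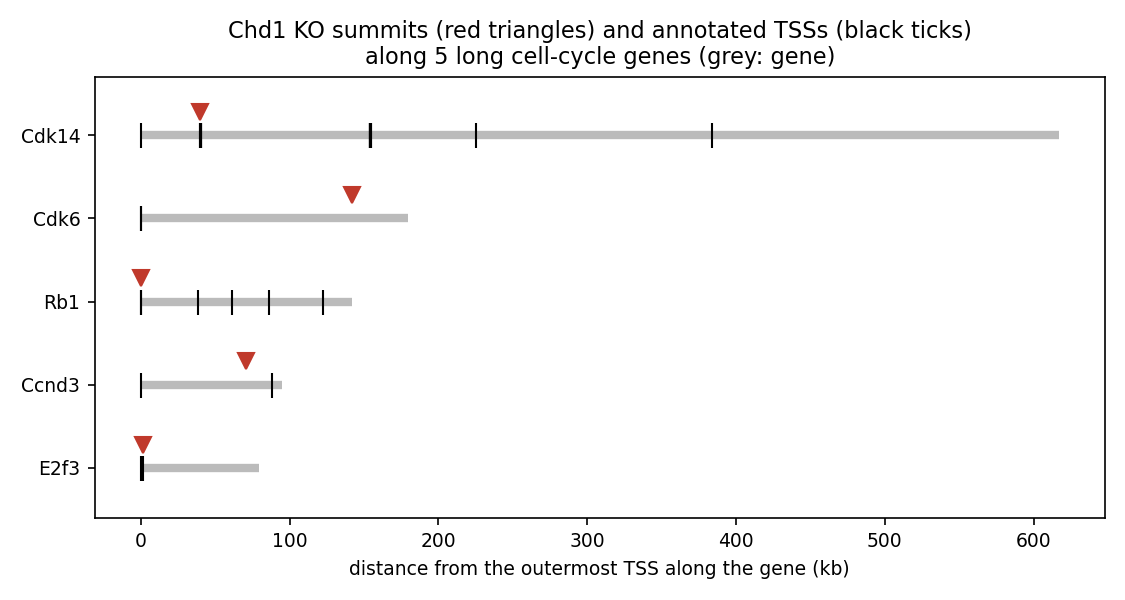
Position of Chd1 KO summits (red triangles) and of annotated TSSs (black ticks) along 5 long genes, as the distance in kb from the outermost TSS, with the gene as a grey bar. The summits of Rb1 and E2f3 lie at the start of the gene, that of Cdk14 at 39.6 kb beside a group of internal TSSs, and those of Ccnd3 and Cdk6 in introns at 70.7 and 142 kb.

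None of the 6 CDK inhibitors Cdkn1a, Cdkn1b, Cdkn1c, Cdkn2a, Cdkn2b and Cdkn2c had a peak at a TSS or in the gene body. At a TSS, 0 of 6 allows a share of up to 50.0%, which includes the 15.9% of all protein-coding genes. The promoters of the 6 inhibitors were not all poor in GC. Cdkn1c (p57), an imprinted inhibitor, had the highest promoter GC content of any gene without a peak, 66.2%, and a length of 2.70 kb, and its nearest summit was 42.4 kb away, at Phlda2. Cdkn1b (p27), which holds back Cdk2, had a promoter GC content of 59.8% and a longest run of 24 bp in a gene of 5.11 kb, with the nearest summit 128 kb away. Cdkn2a, which encodes p16 and p19Arf, had a promoter GC content of 61.9% and a longest run of 17 bp in a gene of 16.0 kb, and its nearest summit lay 249.6 kb away. The peak nearest to Cdkn2c, 9.65 kb off, was at the promoter of Faf1, 155 bp from its TSS.

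Of the 8 E2f factors, 5 had a promoter peak (62.5%, 30.6 to 86.3%, against 15.9% of all protein-coding genes), the highest count of the 6 roles, while the share was higher in the Rb family, with 2 of 3 genes (66.7%, 20.8 to 93.9%). By role they include activators (E2f1 and E2f3), a repressor that works with pocket proteins (E2f4) and the pair of atypical repressors that bind DNA without a dimerisation partner (E2f7 and E2f8). E2f8 had the strongest promoter peak of the 48 genes, chr7:56136737-56137120, with 31 reads (21.1 to 44.0), a background of 4.36 and a fold enrichment of 5.97, which was above 93.8% of the 3560 protein-coding genes with a promoter peak. Its summit was 64 bp downstream of the TSS of E2f8 and 232 bp from the TSS of Gm2788, so the peak cannot be given to E2f8 alone. Its paralogue E2f7 had 18 reads (10.7 to 28.4) and a fold enrichment of 4.36, with the summit 103 bp upstream of the outermost TSS in the peak chr10:110182227-110182444. The intervals of the reads of E2f7 and E2f8 overlapped.

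E2f1, the best known activator of S phase genes, had 25 reads (16.2 to 36.9) and a fold enrichment of 4.66 in the peak chr2:154395007-154395226. The summit was 41 bp upstream of an internal TSS and 434 bp downstream of the outermost one. E2f3 likewise had its summit, with 18 reads and a fold enrichment of 4.04, at an internal start, 11 bp downstream of it and 1460 bp downstream of the outermost TSS, in the peak chr13:30075808-30076158. E2f4, the factor most bound to target genes in resting cells, had 21 reads (13 to 32.1) over the highest background of the 13, 5.14, and the lowest fold enrichment, 3.58, which was above 4.58% of genes with a promoter peak. Its peak was chr8:107821522-107821740 and its summit 13 bp downstream of its only TSS. E2f2, E2f5 and E2f6 had no peak, with promoter GC contents of 56.3%, 52.0% and 55.3%, against 53.0% at E2f4, 55.7% at E2f7 and 61.3 to 62.1% at E2f1, E2f3 and E2f8.

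Rb1, the retinoblastoma protein that restrains the activator E2fs, had its summit 63 bp upstream of the outermost TSS, with 21 reads (13 to 32.1) and a fold enrichment of 4.23, in the narrowest and most GC-rich of the 13 peaks, chr14:73725645-73725850, with 206 bp and 84.5% GC. Rbl1 (p107) had its summit in a coding exon 212 bp downstream of a TSS, with 23 reads and a fold enrichment of 5.06, in the peak chr2:157029890-157030217. Rbl2 (p130), the pocket protein of resting cells, had no peak, and its promoter GC content was 51.5%, against 64.1% at Rb1 and 54.97% at Rbl1.

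Cdc25a, which activates Cdk2 and Cdk1, had 23 reads and a fold enrichment of 4.62 in the peak chr9:109778313-109778661, with its summit 41 bp upstream of an internal TSS and 370 bp downstream of the outermost one. Wee1, which opposes it, had the fewest reads of the 13, 16 (9.15 to 26.0), a fold enrichment of 3.66 and the highest q-value of the 13, 3.13 as −log10. Its summit lay 134 bp downstream of its only TSS, in a coding exon, in the peak chr7:117265963-117266182. The phosphatases of later phases, Cdc25b and Cdc25c, had no peak, with promoter GC contents of 56.1% and 47.4%.

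**Figure D2:**
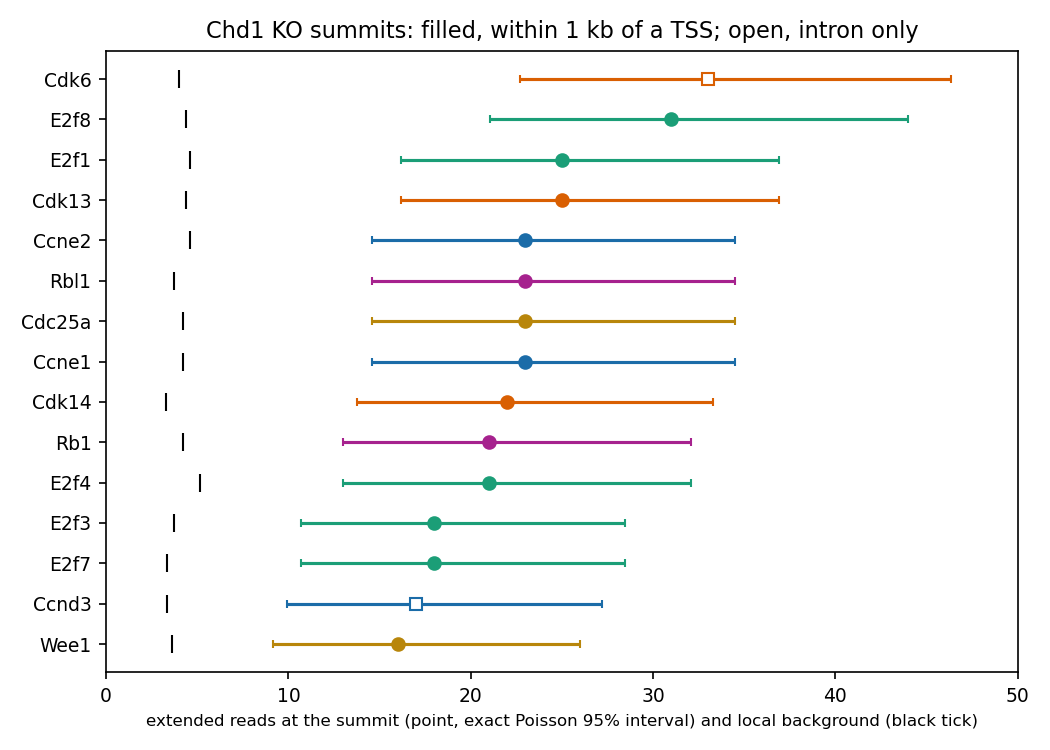
Extended reads at the Chd1 KO summits of 15 genes (points, with exact Poisson 95% intervals) and the local background of each (black ticks), with promoter summits filled and intron summits open. Reads run from 16 at Wee1 to 33 at Cdk6, and the intervals overlap one another. Each interval lies above its background, which follows from how peaks were called.

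Seen together, the 13 promoter peaks were close in strength to those elsewhere. They had 16 to 31 reads with a median of 23, over backgrounds of 3.26 to 5.14, and fold enrichments of 3.58 to 5.97 with a median of 4.60. The median fold enrichment of all 3560 protein-coding genes with a promoter peak was 4.55. By the rule all 13 summits lay within 1 kb of a TSS, 6 upstream and 7 downstream of the nearest one. Of the 13, 10 were within 150 bp, and the median distance was 63 bp. The share within 150 bp was not computed for all genes with a promoter peak. By annotation, 5 summits were in 5′ untranslated exons, 2 in coding exons, 2 in exons of transcripts that have no coding sequence there, 1 in an intron and 3 upstream of the gene. The GC content of the peaks was 68.6 to 84.5% with a median of 75.5%, and the median of all Chd1 KO peaks was 74.3%.

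**Figure D3:**
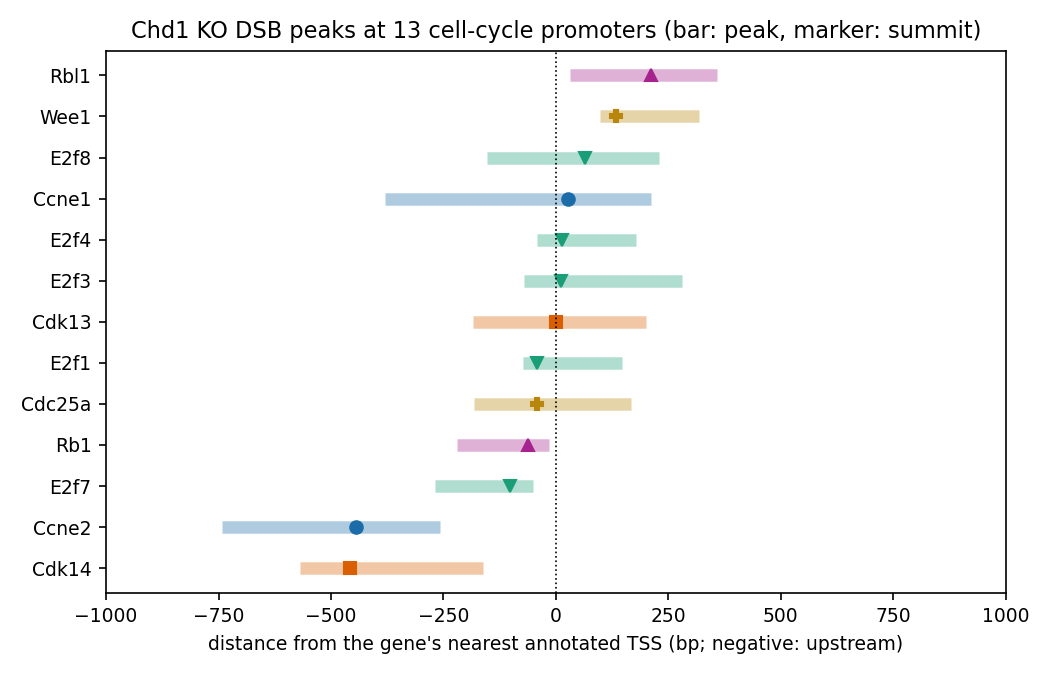
Chd1 KO peaks at 13 promoters, placed by the distance in bp from the nearest annotated TSS of the gene (dotted line, negative upstream), with bars for the peaks and markers for the summits, coloured by role as cyclins in blue, CDKs in orange, E2f factors in green, Rb family in purple and Cdc25 and Wee1 in gold. Of the summits, 10 lie within 150 bp of the TSS, and those of Ccne2 and Cdk14 lie farthest upstream, at 445 and 457 bp.

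Promoter GC content was higher in genes with a peak, and the ranges overlapped. The median was 61.8% in the 13 genes with a promoter peak and 54.5% in the 35 without, and over all protein-coding genes it was 58.6% and 49.8%. At 65% GC or more, 4 of 5 genes had a peak, the exception being Cdkn1c, where 76.3% of all protein-coding genes of that class did. Between 60 and 65%, 4 of 7 had one, against 55.2% of all genes, and those without were Cdkn2a, Cdk6 and Ccnj. Ccnj, a little studied cyclin, had a promoter GC content of 61.3%, a longest run of 17 bp and a length of 17.1 kb, with its nearest summit 200 kb away. From 55 to 60% the count was 2 of 13, against 29.2% of all genes, from 50 to 55% it was 2 of 15, against 11%, and below 50% it was 1 of 8, against 2.67%. That last gene was Cdk14, whose peak was at an internal TSS.

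Each class held few of the genes, and the Wilson intervals of their shares included the share of all genes in all 5 classes. When each of the 48 genes was given the share of all protein-coding genes in its own GC class, these shares added up to 13.3 genes, beside the 13 counted, a sum computed after the counts had been seen. By role, the same sum gave 4.08 for the cyclins, where 2 were counted, 2.50 for the CDKs (2 counted), 1.85 for the CDK inhibitors (0 counted), 2.75 for the E2f factors (5 counted), 0.77 for the Rb family (2 counted) and 1.37 for the Cdc25 and Wee1 group (2 counted). Whether the roles differ beyond their GC content was not tested.

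**Figure D4:**
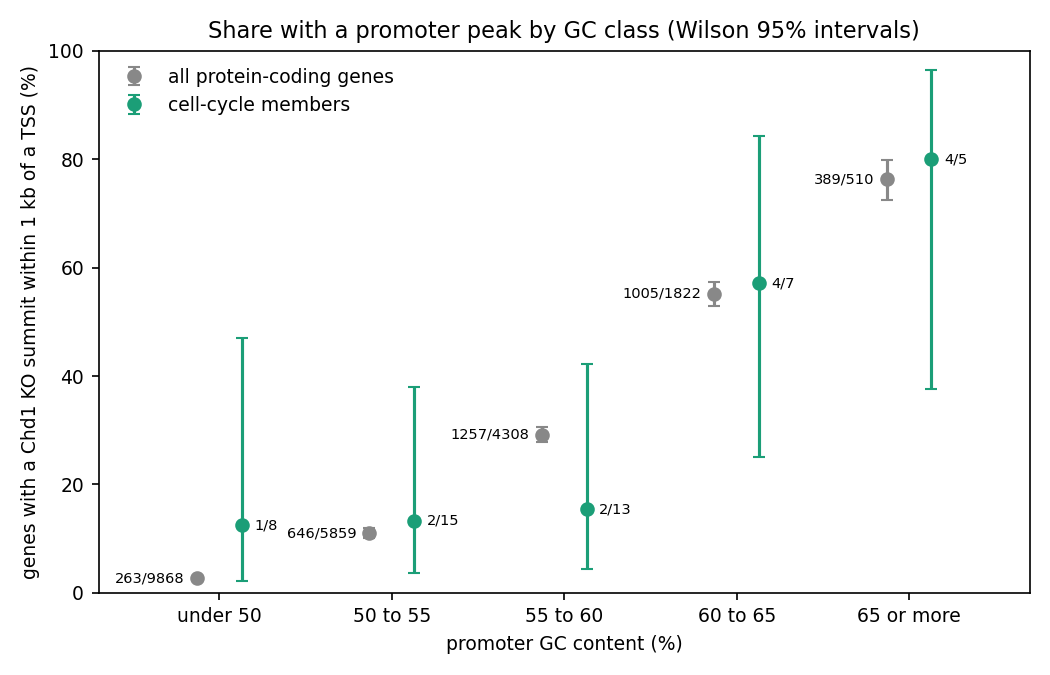
Share of genes with a Chd1 KO summit within 1 kb of a TSS (percent, points with Wilson 95% intervals) in 5 classes of promoter GC content, for all protein-coding genes (grey) and for the 48 cell-cycle genes (green), with counts beside the points. Both rise with GC content, to 389 of 510 genes and 4 of 5 genes at 65% or more, and every green interval includes the grey share of its class.

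The longest run of G and C within 1 kb of any TSS, which need not lie under the peak, ordered the genes in a like way. Its median was 23 bp in genes with a promoter peak and 17 bp in those without, and 22 and 11 bp over all protein-coding genes. With a run of 25 bp or more, 5 of 7 genes had a peak, against 65.9% of all genes, and the exceptions were Ccna1 and Ccnd1. Ccna1, the germ-line A-type cyclin, had a promoter GC content of 59.8%, a length of 9.59 kb and its nearest summit 311 kb away, the farthest of the 48. Ccnd1 had a length of 9.94 kb and its nearest summit 76.9 kb away, at Fgf4. Cdk4 had a longest run of 24 bp, a promoter GC content of 54.5% and a length of 3.18 kb. Below 15 bp the only gene with a peak was Wee1, 1 of 13, against 1.61% of all genes. In the classes between, the counts lay below the shares of all genes, with 5 of 12 from 20 to 25 bp, against 46.9%, and 2 of 16 from 15 to 20 bp, against 22.2%. The sum of class shares by run length was 14.0 genes.

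**Figure D5:**
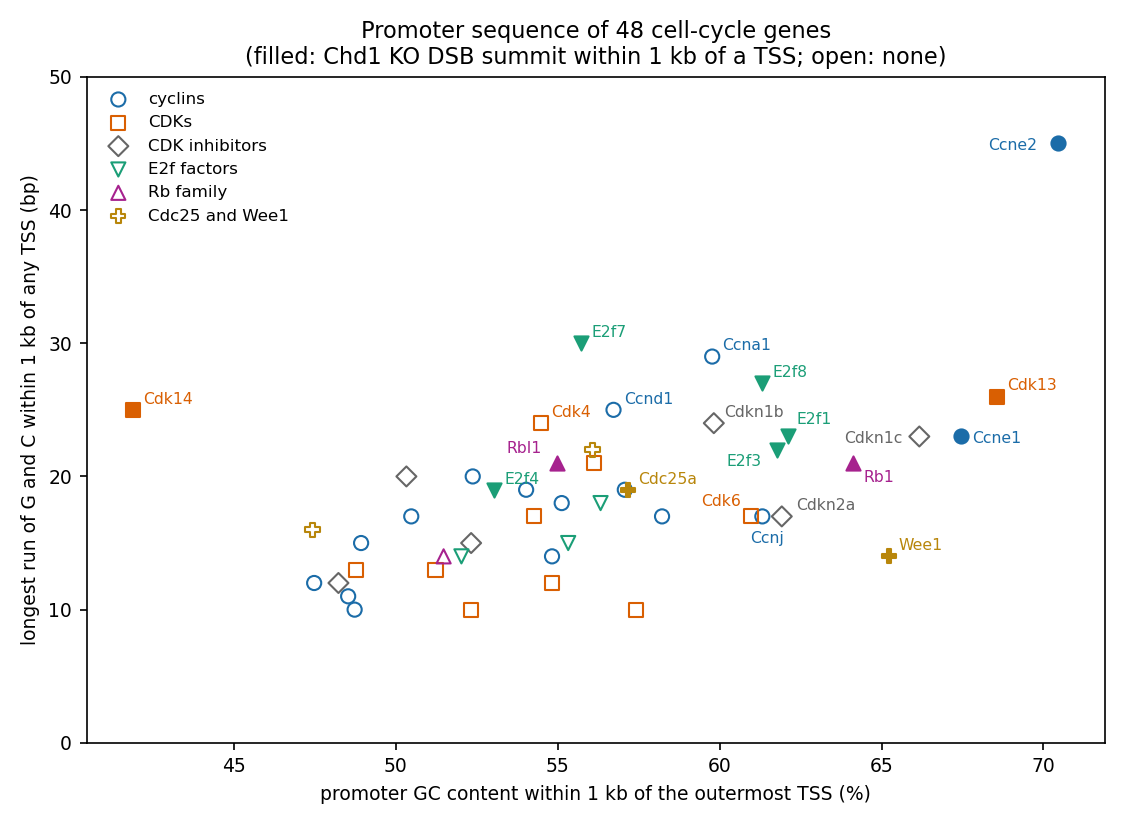
Promoter GC content (percent, within 1 kb of the outermost TSS) and longest run of G and C (bp, within 1 kb of any TSS) of the 48 genes, with a marker for each role, filled where a Chd1 KO summit lay within 1 kb of a TSS. Filled markers tend to lie at higher GC content and longer runs, and they overlap the open ones. Among the filled markers Cdk14 has the lowest GC content, 41.9%, and Wee1 the shortest run, 14 bp. The open markers of Cdkn1c, Ccna1 and Ccnd1 lie among the filled ones.

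Gene length, the mean of the protein-coding transcripts, had a median of 19.8 kb in genes with a promoter peak and 13.7 kb in those without, against 33.1 and 10.9 kb over all protein-coding genes. The 13 genes ranged from 7.71 kb at E2f4 to 341 kb at Cdk14. At 50 kb or more, 5 of 9 genes had a peak (Rbl1, Cdk14, Cdk13, E2f3 and Rb1), against 31.6% of all genes, and below 10 kb 3 of 19 did (E2f1, Ccne1 and E2f4), against 7.10%. The median number of annotated TSSs was 4 in genes with a peak and 2 in those without. A gene with more TSSs has more windows in which a summit can fall, and with 5 or more TSSs 5 of 15 genes had a peak, against 25.3% of all genes. The sum of class shares was 7.69 genes by gene length and 8.61 genes by number of TSSs, both below the 13 counted.

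The 35 genes without a promoter peak had GC contents of 47.4 to 66.2%, longest runs of 10 to 29 bp and lengths of 2.70 to 179 kb. Their nearest Chd1 KO summit was a median of 69.9 kb from a TSS and within 50 kb for 15 of them. Several shared a nearest peak with a neighbour, such as Ccng2 and Ccni, where that peak lay 29.5 kb from Ccng2 and 31.3 kb from Ccni.

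Binding sites known from cell-cycle promoters were looked for by their letters on both strands, from 250 bp upstream to 50 bp downstream of the outermost TSS. An E2F site (TTTCCCGC, TTTCGCGC, TTTGCCGC or TTTGGCGC) was found in 9 of 48 genes (18.8%), against 2.72% of all protein-coding genes. It was present in 5 of the 13 genes with a promoter peak and in 4 of the 35 without, and over all protein-coding genes in 3.99% and 2.48%. The sites of 4 genes with a peak and of 2 without are shown with their flanks, on the strand of the gene, with the site in capitals and in its reverse complement at E2f7.
E2f1, chr2:154395604-154395611, minus strand: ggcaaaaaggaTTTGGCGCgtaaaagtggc
E2f7, chr10:110182297-110182304, plus strand: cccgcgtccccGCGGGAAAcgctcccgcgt
Rb1, chr14:73725620-73725627, minus strand: ggaagtgacgtTTTCCCGCggttggcccgg
Rbl1, chr2:157030281-157030288, minus strand: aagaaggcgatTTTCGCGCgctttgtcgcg
E2f2, chr4:135728228-135728235, plus strand: gcggcatatagTTTGGCGCtaaaaaaaaaa
Cdk1, chr10:68815784-68815791, minus strand: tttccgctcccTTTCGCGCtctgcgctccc
Only at E2f7 did the site lie inside the peak, 91 bp from the summit. At Rb1 the site was 68 bp from the summit and just outside the peak, at Rbl1 249 bp, at Cdc25a 433 bp and at E2f1 414 and 427 bp for its pair of sites. Cdc25a and E2f1 have their summit at an internal TSS.

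The CHR element (TTTGAA), a mark of genes of late cell-cycle phases, was found in 10 of 48 genes (20.8%, against 16.3% of all genes), of which E2f8 alone had a promoter peak. Over all protein-coding genes it was found in 8.79% of those with a promoter peak and in 17.7% of those without. The CCAAT box (CCAAT) was found in 22 genes (45.8%, against 37.9% of all genes), 5 of the 13 with a peak and 17 of the 35 without, and the GC box (GGGCGG) in 39 genes, 11 of the 13 and 28 of the 35. The GC box was found in 43.4% of all genes, in 74.9% of those with a promoter peak and 37.5% of those without, and it is itself a run of G and C.

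A further 60 cell-cycle genes around this core were counted by the same rule, and 13 had a promoter peak (21.7%, 13.1 to 33.6%), an interval that includes the 15.9% of all protein-coding genes. The share was 5 of 8 among E2f partners and the MuvB group with its activators, 3 of 10 among other cyclins, 2 of 16 among other kinases, 2 of 5 among ubiquitin ligase genes, 1 of 17 among genes of replication licensing and 0 among 2 further inhibitors and 2 Cks genes. The 5 with the highest fold enrichment were Ccnl1, a cyclin of transcription and splicing, with 6.06 and 27 reads, Foxm1, a factor of mitotic genes, with 6.06 and 35 reads, Tfdp2, a dimerisation partner of E2fs, with 5.23 and 22 reads, Dbf4, the activator of the Cdc7 kinase, with 5.15 and 23 reads, and Ccny, the cyclin that pairs with Cdk14, with 4.90 and 23 reads. No control summit lay at a TSS of these 60 genes.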

How the data were processed

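DSB-seq peak lists of Chd1 KO and control ES cells were analysed. The authors aligned reads to mm9 (Bowtie2), discarded poorly mapped reads and PCR duplicates, merged both replicates of a genotype, extended reads to 200 bp and ran MACS2 (q-value cutoff 0.05), leaving out peaks in blacklisted regions. The deposited fold enrichment is the ratio of reads to local background at the summit within 1 combined library, and it is not scaled between genotypes. The deposited −log10 p-value and −log10 q-value are those of MACS2 at the summit. The peak lists hold no total of reads, and the totals per replicate that the study gives were not used here; depth was compared by the lowest local background. ChIP-seq was not analysed here.

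Reads and background at each summit were recovered from fold enrichment, as reads plus 1 over background plus 1, and the Poisson p-value, with an error of at most 0.00014, and in simulated peaks for all 2000 of 2000. TSSs and exons came from GENCODE M1, and sequence from the mouse assembly NCBIM37 (mm9). Promoter GC was taken within 1 kb of the outermost TSS. Shares have Wilson and reads exact Poisson 95% intervals, and for 0 the limit is 3 counts. Software was pandas 2.3.3, SciPy 1.17.1, NumPy 2.4.6, pysam 0.24.0 and Matplotlib 3.10.9 under Python 3.11.15.

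The members and lists were chosen with earlier results of these data known. Every gene with a peak is named with its values, as are genes without one among the 5 highest in promoter GC or run length, and the 5 strongest of the other cell-cycle genes. Stricter cutoffs, other windows, TSS sets and measures were tried as alternatives. The sequence of 1 of the 8 long runs is not reported here.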

Additional observations from a re-analysis of the deposited data

How the results depend on the processing

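No paired analysis was possible because the replicates of each genotype were combined before peaks were called. For the same reason no replicate could be left out. Of 67 alternative values, 0 reversed, 62 stayed within the range allowed for each result and 5 moved out of it. Each result is a count or a median without a direction, so none of the values could reverse. With a fold enrichment of at least 5, promoter summits fell to 3 of the 48 genes, Cdk14, E2f8 and Rbl1. That share was close to the 4.88% of all protein-coding genes. Gene-body summits fell to 4 genes and the median fold enrichment rose to 5.40, which follows from the cutoff itself. The median gene length of those 3 genes was 58.6 kb, against 19.8 kb for the 13, within the wide interval of that median (9.98 to 89.1 kb). Leaving out summits within 1 kb of a TSS left 2 genes with a gene-body summit, Ccnd3 and Cdk6. The median promoter GC content of genes with a peak was 71.2% within 500 bp of the TSS. Under all other cutoffs and windows 11 to 13 genes had a promoter summit. A window from 1 kb upstream to 100 bp downstream lost Rbl1 and Wee1 (11 genes, against 10.3% of all genes), the outermost TSS alone lost Cdk14 and E2f3 (11 genes, against 14.3%), and the weakest control p-value lost Wee1 (12 genes, against 14.2%). Stricter cutoffs, narrower windows and smaller sets of TSSs can only remove summits. The window of 2 kb could not add a gene, since the nearest summit of a gene without a promoter peak lay 3.45 kb from its TSS. The peak midpoint gave the same 13 genes. The control counts at a TSS could only stay at 0, since the nearest control summit lay 249.6 kb away. Such fixed outcomes are among the 62 values that stayed. Depth limits both lists, since no peak had fewer than 13 reads in Chd1 KO or 17 in control.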
